A study of Mus musculus with 18 samples.

Results

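Livers of mice on a high-fat diet (HFD) and alginate oligosaccharide (HFD+AOS) were compared with livers of mice given alginate oligosaccharide alone (AOS). All of these mice received AOS. The difference between the groups is called the diet effect below, and other causes of it were not tested. AOS is a mix of short sugar chains cut from the alginate of brown seaweed, and its labelled dose was 10 mg/kg in both groups. The comparison holds 6 of the 18 livers that were sequenced, 3 in each group, and each liver is a separate sample in the labels. All were from ICR mice, an outbred strain, aged 10 weeks. The study asked whether gut microbiota shaped by AOS offset the effects of HFD, and the other livers came from a control group (Con), a group on HFD alone (HFD) and groups on HFD that received microbiota of AOS-dosed (A10-FMT) or control donors (Con-FMT). The label of the AOS group names no diet, so its regular diet is inferred from the absence of one, and the route and length of the AOS treatment of these groups, the hour at which the livers were taken and the feeding state of the mice are not given in the sources used here.

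The liver takes up, burns, makes and exports fat, and it adjusts these tasks to what arrives from the gut. When fat is plentiful, the receptor PPAR alpha raises the genes that burn fatty acids, while the regulators SREBP-1c and ChREBP drive the genes that make them from sugar. Many of these genes also follow the liver's circadian clock, in which BMAL1 (gene Arntl) with CLOCK or NPAS2 turns on the Per, Cry and Nr1d genes and the PAR bZIP factors Dbp, Tef and Hlf, whose products feed back on it. Genes of these 2 arms of the clock peak at different hours of the day.

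Expression was deposited as RPKM, a read number scaled by the length of the gene and the reads of its library. Over the 18 livers, RPKM summed to 692303 at the lowest and 806937 at the highest, with 14512 to 14982 genes above 0. Read numbers do not accompany the values, so sequencing depth, and how precise a low RPKM is, cannot be known from them. The livers carried the marks of their tissue, with albumin (Alb) from 30405 to 40007 RPKM and the liver factor Hnf4a from 99.5 to 131 RPKM in the 6 livers, and the Y-linked gene Ddx3y at 10.6 to 13.7 RPKM placed all 6 mice as male. Lep, a marker of adipose tissue, and Cdx2, of gut, were listed at 0 in all 6. Adipoq and Retn, also of adipose tissue, reached at most 0.06 and 0.15 RPKM. Vil1 and Muc2, also of gut, reached 0.08 and 0.01 RPKM. A wider list of gallbladder and gut epithelium markers summed to 74.3 to 87.8 RPKM in AOS and 86.6 to 201 RPKM in HFD+AOS livers. The pancreas marker Cela1 was at 30.6 to 48.8 RPKM, while Prss2, Cpa1 and Ctrb1 reached at most 0.09, 0.04 and 0.08 RPKM.

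The third AOS liver and the third Con liver stood apart from the rest of the series. Of 142 genes that differed by at least 1 on the log2 scale between the first and second AOS livers, the third lay between them for 96.5%, and a blend of 0.35 of the first and 0.65 of the second matched it with a median absolute difference of 0.083. In the Con group this held for 98.0% of 148 genes, with weights of 0.54 and 0.46. In the other 4 groups the best such match of any liver left a median difference of 0.341 or more. For genes given with an adjusted p that passed, a second value in the same brackets is therefore that of a smaller set, in which the third AOS and the third Con liver were dropped.

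The test covered 10507 genes that reached 1 RPKM in 3 or more of the 18 livers. HFD+AOS and AOS were compared as log2(RPKM + 1), a scale that makes changes of low genes look smaller than they are, with limma fitted over all 18 livers. Genes passed the test at a Benjamini-Hochberg adjusted p under 0.05. All p values below are limma adjusted p values unless said otherwise. With 3 livers against 3, an exact permutation test of a single gene cannot go below p = 0.1.

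Between HFD+AOS and AOS livers 572 genes differed (5.44% of those tested), of which 264 rose (2.51%) and 308 fell (2.93%). Of these, 33 rose and 58 fell by at least 1 on the log2 scale. In the smaller set 161 genes passed (1.53%), 72 of them higher and 89 lower, and all 161 were among the 572. The livers of the groups did not overlap for 3018 genes (28.7%), 1222 of them higher and 1796 lower in HFD+AOS livers. An unadjusted p under 0.05 was reached by 2154 of the 10507 genes. Counts given for lists below are to be read beside these numbers for all genes tested. The median log2 difference of all genes tested was -0.03, and setting the medians of all livers equal moved the calls to 427 higher and 340 lower. With the cut-offs named in the study's methods, an adjusted p up to 0.001 together with a log2 difference of 1 or more in either direction, 26 genes remained, 11 higher and 15 lower, and 6 in the smaller set.

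Dbp, an output of the clock, had the largest rise of the genes that passed. Of 17 tested genes in a list of clock repressors and PAR bZIP outputs, 11 rose and 2 fell, with a median log2 difference of 1.10. In a list of 8 genes of the opposite, Bmal1 phase, 6 fell and 1 rose, with a median of -1.34. In the smaller set, 9 rose and 2 fell in the first list, and 5 fell in the second. The genes of the first list that rose were Dbp, Ciart, Per3, Usp2, Tef, Wee1, Nr1d2, Per2, Bhlhe41, Cry2 and Hlf, and those of the second that fell were Arntl, Npas2, Elovl3, Nfil3, Cry1 and Clock.

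The 250 bases before the start sites of these genes were searched for 3 clock elements. Elements elsewhere in a gene were not searched, and Dbp and Arntl held none in their windows. Some genes, such as Tef and Clock, have several windows, so counts of genes and shares of windows are unlike measures. Of the 12 genes of both clock lists that rose, 10 had a RefSeq window (build GRCm38.p6). Of the 8 that fell, Leo1 and Tars among them, 7 did. The E-box CACGTG, which BMAL1 with CLOCK binds, was in a 250-base window of Ciart, Tef, Bhlhe41 and Cry1. It was found in 8.38% of the windows of all genes tested. The D-box TTATGNAA, which the PAR bZIP factors and the repressor NFIL3 bind, was in the window of Per3 and in 2.07% of the windows of genes tested. The ROR element, TAGGTCA or TGGGTCA, which ROR and REV-ERB receptors bind, was in the windows of Nfil3 and Leo1 and in 4.45% of all. Each motif was searched on both strands. The windows of Ciart, at chr3:95882229-95882478 on the minus strand, and of Per3, at chr4:151044666-151044915 on the minus strand, are shown because they held 3 E-boxes and 2 D-boxes. They are written 5′ to 3′ up to the base before the start site, with the motifs in capitals.
Ciart: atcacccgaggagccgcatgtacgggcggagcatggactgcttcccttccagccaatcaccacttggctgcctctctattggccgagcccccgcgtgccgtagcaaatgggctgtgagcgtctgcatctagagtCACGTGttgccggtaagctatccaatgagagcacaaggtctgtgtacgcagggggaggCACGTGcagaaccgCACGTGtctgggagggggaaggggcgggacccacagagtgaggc
Per3: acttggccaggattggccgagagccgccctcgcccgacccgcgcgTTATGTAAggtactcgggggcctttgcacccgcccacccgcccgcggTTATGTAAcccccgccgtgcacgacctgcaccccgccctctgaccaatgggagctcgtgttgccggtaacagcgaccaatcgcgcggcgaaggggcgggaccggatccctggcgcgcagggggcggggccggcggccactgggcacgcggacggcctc

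Dbp, a PAR bZIP factor that passes the clock's rhythm on to metabolic genes, was at 3.41, 0.36 and 1.78 RPKM in the AOS livers and at 112, 88.9 and 97.8 RPKM in the HFD+AOS livers. Every HFD+AOS liver was above every AOS liver, and Dbp rose by 5.29 on the log2 scale (SE 0.51, adjusted p = 2.66e-05, and 0.000918 in the smaller set). Ciart, a repressor of CLOCK and BMAL1, went from 0.45, 0.07 and 0.35 RPKM to 7.21, 9.82 and 10.7 RPKM. Its groups did not overlap either, and it rose by 2.98 (SE 0.20, adjusted p = 5.99e-07, and 3.41e-05 in the smaller set). The same separation held for Per3, a member of the period family, with 1.06, 0.40 and 0.55 RPKM against 7.77, 6.60 and 8.47 RPKM (log2 difference 2.38, adjusted p = 3.20e-05, and 0.00118).

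Tef, another PAR bZIP factor, was at 14.2, 6.30 and 9.30 RPKM in AOS livers and at 44.4, 40.5 and 42.03 RPKM in HFD+AOS livers. It rose by 2.05 on the log2 scale (adjusted p = 0.000327, and 0.00606 in the smaller set). Usp2, a deubiquitinase under clock control, rose by 2.08 (adjusted p = 7.91e-05, and 0.00175), and Wee1, a kinase that holds cells before mitosis, by 1.89 (adjusted p = 1.65e-05, and 0.000405). Nr1d2, which encodes REV-ERB beta, was at 10.4, 6.39 and 8.16 RPKM against 20.4, 18.1 and 21.9 RPKM and rose by 1.20 (adjusted p = 0.00532, and 0.0415). Nr1d1, which encodes REV-ERB alpha, spread more widely, at 30.7, 10.0 and 16.9 RPKM against 70.1, 56.8 and 54.4 RPKM, and its log2 difference of 1.73 did not pass (SE 0.62, adjusted p = 0.119, and 0.308). Per2, with a log2 difference of 1.10 and adjusted p = 0.0497, passed only just and not in the smaller set (adjusted p = 0.183).

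Arntl was at 11.2, 12.7 and 11.8 RPKM in the AOS livers and at 1.18, 1.23 and 1.32 RPKM in the HFD+AOS livers. The groups lay far apart with little spread inside either, and Arntl fell by 2.52 on the log2 scale (SE 0.22, adjusted p = 1.40e-05, and 0.000457 in the smaller set). Npas2, the stand-in for CLOCK as its partner, was at 2.93, 3.61 and 3.40 RPKM against 0.11, 0.06 and 0.19 RPKM (log2 difference -1.94, adjusted p = 2.89e-06, and 0.000182). Nfil3, which competes with the PAR bZIP factors at D-boxes, went from 20.2, 26.3 and 22.1 RPKM to 8.85, 9.25 and 6.76 RPKM (log2 difference -1.37, adjusted p = 7.91e-05, and 0.00179). Clock fell by 0.93 (adjusted p = 0.0012, and 0.0204) and Cry1, a late repressor, by 1.32 (adjusted p = 0.0147, and 0.106).

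The remaining members of both lists were less uniform. Elovl3, an elongase whose level follows the clock, fell from 72.4, 151 and 119 RPKM to 25.2, 26.5 and 45.3 RPKM (log2 difference -1.78, adjusted p = 0.00249, and 0.0299 in the smaller set). Upp2, a uridine phosphorylase in the same list, rose instead, from 80.4, 73.1 and 77.5 RPKM to 199, 201 and 212 RPKM (log2 difference 1.39, adjusted p = 0.0241, and 0.116). Leo1, part of a transcription elongation complex, and Tars, which charges the tRNA for threonine, fell within the list of repressors by 0.78 (adjusted p = 0.00428, and 0.0367) and 0.91 (adjusted p = 0.00151, and 0.0197). Neither belongs to the core clock.

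Without AOS, in HFD against Con livers, none of these genes passed the threshold. Dbp was between 0.58 and 0.68 RPKM in the Con livers and between 0.27 and 0.59 RPKM in the HFD livers, and Arntl was between 10.1 and 12.9 RPKM in Con and 12.1 and 14.6 RPKM in HFD. At both genes the HFD+AOS livers were apart from the AOS, Con and HFD livers. The A10-FMT livers had Dbp at 127, 70.8 and 49.2 RPKM, and the Con-FMT livers at 16.5, 3.24 and 22.6 RPKM. Arntl was at 0.79, 0.69 and 2.41 RPKM in the A10-FMT livers, with 2 livers below and 1 above the HFD+AOS livers, and at 8.02, 12.97 and 6.94 RPKM in the Con-FMT livers. For HFD against Con limma passed 0 genes of both lists, against 0.381% of all genes tested. An unadjusted p under 0.05 was reached by 3 of 17 and 1 of 8, against 1623 of all 10507 genes tested. The diet effect itself differed with and without AOS for 7 of the 17 and 4 of the 8, against 0.504% of all genes tested. No source used here gives the hour at which each liver was taken, so whether the groups differed in it is unknown and its part was not tested.

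**Figure D1:**
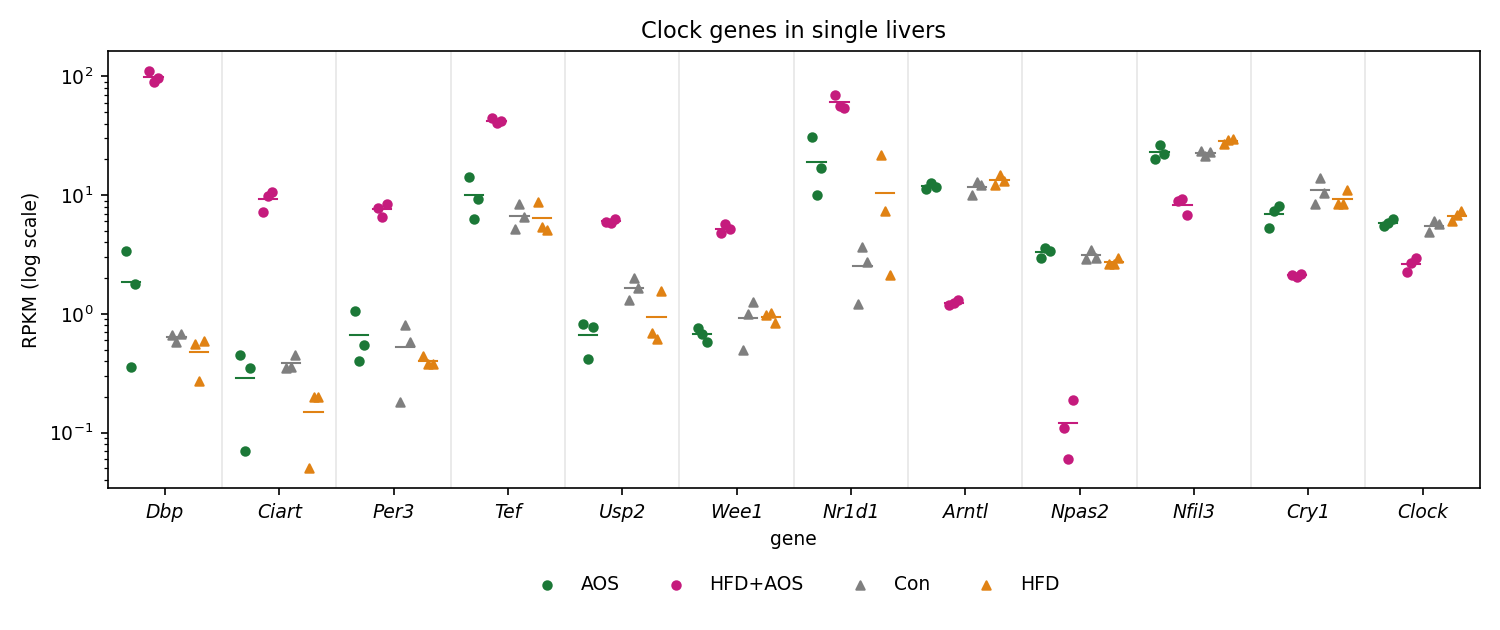
RPKM of 12 clock genes in single livers of the AOS, HFD+AOS, Con and HFD groups, on a log scale. Each point is a liver and each short line the mean of 3. At Dbp, Ciart, Per3, Tef, Usp2, Wee1 and Nr1d1 the HFD+AOS livers lie above the other 3 groups, and at Arntl, Npas2, Nfil3, Cry1 and Clock below them.

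Several genes outside the clock lists changed as sharply. Chka, choline kinase alpha, which starts the main route to phosphatidylcholine, was at 38.7, 44.7 and 41.1 RPKM in the AOS livers and at 8.91, 7.73 and 8.67 RPKM in the HFD+AOS livers. No other gene named here had a smaller p for its change (log2 difference -2.17, SE 0.14, adjusted p = 5.60e-07, and 3.41e-05 in the smaller set). Cdkn1a, the cyclin-dependent kinase inhibitor p21, fell from 13.1, 6.73 and 8.78 RPKM to 0.91, 0.51 and 0.73 RPKM (log2 difference -2.58, adjusted p = 7.91e-05, and 0.00179). At neither gene did the groups overlap.

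Among 13 p53 and Gadd45 stress genes, Cdkn1a fell and Gadd45a, a DNA damage and stress sensor, rose from 2.71, 2.13 and 2.08 RPKM to 8.24, 7.75 and 7.79 RPKM (log2 difference 1.44, adjusted p = 5.14e-05, and 0.00174 in the smaller set). Tubb2a, a beta tubulin, fell from 94.8, 109 and 101 RPKM to 18.3, 13.02 and 20.4 RPKM (log2 difference -2.51, adjusted p = 0.00543, and 0.0419). Raet1e, a ligand of the NKG2D receptor of natural killer cells, fell by 2.28 (adjusted p = 0.000626, and 0.00965). Gpc1, a cell-surface proteoglycan, rose from 1.58, 0.84 and 1.16 RPKM to 4.96, 5.26 and 9.20 RPKM (log2 difference 1.74, adjusted p = 0.000343, and 0.00621), and the chemokine gene Cxcl1 rose by 1.54 (adjusted p = 0.0451, and 0.167).

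Genes that burn fatty acids were slightly higher as a group, and a few of them passed. Of 22 tested genes of mitochondrial fatty acid oxidation, 21 had a higher mean in HFD+AOS livers, with a median log2 difference of 0.24, against 43.4% of all genes tested with a higher mean. The 2 that rose were Cpt1a, the carnitine transferase that admits long chains to mitochondria, and Slc22a5, the carnitine importer. Cpt1a was at 62.3, 51.6 and 52.9 RPKM in the AOS livers and at 98.0, 87.2 and 112 RPKM in the HFD+AOS livers, with no overlap. It rose by 0.82 on the log2 scale (SE 0.13, adjusted p = 0.00149, and 0.0243 in the smaller set), and Slc22a5 by 0.46 (adjusted p = 0.0145, and 0.0973). HFD alone gave this list a median of 0.31 against Con.

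Among 20 genes of peroxisomal fatty acid oxidation 5 rose and 0 fell, with a median of 0.13 (0.08 without HFD+AOS replicate 3), and in the smaller set 0 passed by limma. Slc27a2, which takes up and activates very long chains, was at 325, 333 and 325 RPKM against 414, 519 and 481 RPKM (log2 difference 0.52, adjusted p = 0.0113, and 0.0754 in the smaller set). Eci2, an isomerase for unsaturated chains, rose by 0.49 (adjusted p = 0.00572, and 0.0539). Pex19, which inserts peroxisomal membrane proteins, and Acaa1a, the peroxisomal thiolase, rose by 0.39 (adjusted p = 0.0162, and 0.0864) and 0.48 (adjusted p = 0.0403, and 0.198). Of 5 ketone body genes, Bdh1, which makes 3-hydroxybutyrate, rose from 78.8, 80.5 and 75.6 RPKM to 129, 119 and 125 RPKM (log2 difference 0.66, adjusted p = 0.00165, and 0.0258). Slc16a1, a carrier of ketone bodies and lactate, fell by 0.57 (adjusted p = 0.0128, and 0.0883).

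Ppara itself, the receptor gene, rose from 24.7, 20.2 and 22.3 RPKM to 39.9, 35.1 and 40.3 RPKM (log2 difference 0.75, adjusted p = 0.00578, and 0.0442 in the smaller set). Its list of 16 tested target genes had a median of 0.18 with 2 genes that rose and 1 that fell. That median was -0.03 without HFD+AOS replicate 3, 0.33 without HFD+AOS replicate 2 and 0.29 without AOS replicate 1. Creb3l3, a liver factor that works with PPAR alpha in fasting, rose by 0.53 (adjusted p = 0.0183, and 0.117), while Pdk4, which keeps pyruvate out of the citric acid cycle, fell from 2.77, 3.62 and 3.72 RPKM to 1.17, 0.61 and 0.86 RPKM (log2 difference -1.22, adjusted p = 0.00578, and 0.0546). The fatty acid hydroxylases Cyp4a10 and Cyp4a14, classical PPAR alpha targets, were spread widely within both groups. Cyp4a14 was at 8.78, 1.06 and 3.37 RPKM in AOS livers and at 2.07, 3.99 and 18.5 RPKM in HFD+AOS livers (log2 difference 0.59, SE 0.77, adjusted p = 0.716). Cyp4a10 had a log2 difference of 0.09 (SE 0.70, adjusted p = 0.959). Fgf21, the fasting hormone of the liver, was at 2.81, 2.2 and 2.29 RPKM against 2.81, 2.27 and 4.2 RPKM (adjusted p = 0.646).

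Genes that make fatty acids were mostly lower, with few calls. Of 15 tested members 11 had a lower mean, with a median of -0.58 (-0.33 without HFD+AOS replicate 2), and 3 fell, 0 in the smaller set. Me1, the malic enzyme that supplies NADPH, fell from 139, 84.9 and 105 RPKM to 42.3, 34.8 and 67.9 RPKM (log2 difference -1.19, adjusted p = 0.0289, and 0.121 in the smaller set). Mlxipl, which encodes ChREBP, fell by 0.66 (adjusted p = 0.0179, and 0.101), and Pnpla3, a lipid droplet protein induced by feeding, by 1.11 (adjusted p = 0.0451, and 0.158). Other enzyme genes of fatty acid synthesis did not pass. Scd1, the stearoyl-CoA desaturase, was at 2033, 895 and 1328 RPKM in the AOS livers and at 538, 48.1 and 304 RPKM in the HFD+AOS livers, which did not overlap (log2 difference -2.74, SE 0.94, adjusted p = 0.106, and 0.280). Fasn, fatty acid synthase, had a log2 difference of -0.98 (adjusted p = 0.207), and Acacb, an acetyl-CoA carboxylase, of -1.48 (adjusted p = 0.0667). Srebf1, which encodes SREBP-1c, and Thrsp, a lipogenic protein, leaned the other way at 0.65 (adjusted p = 0.0742) and 1.22 (adjusted p = 0.169).

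Other steps of fat handling changed singly. Dgat2, which adds the last chain of a triglyceride, rose from 195, 143 and 155 RPKM to 233, 231 and 248 RPKM (log2 difference 0.54, adjusted p = 0.0183, and 0.119 in the smaller set), the only call among 11 genes of triglyceride assembly. Lpl, lipoprotein lipase, fell by 0.91 (adjusted p = 0.0211, and 0.126), and the fatty acid carrier Cd36 did not pass, at 3.79, 1.87 and 2.82 RPKM against 6.28, 3.20 and 4.95 RPKM (adjusted p = 0.0715). None of 18 lipid droplet and lipolysis genes passed by limma, with 6 at an unadjusted p under 0.05. Plin2, the main droplet coat of hepatocytes, had a log2 difference of 0.25 (adjusted p = 0.516). Elovl1, an elongase of very long chains, fell by 0.69 (adjusted p = 0.0232, and 0.106).

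Genes that move sterols rose where they changed. Of 15 sterol transport and LXR target genes 3 rose and 0 fell, against 2.51% and 2.93% of all genes tested. Npc1, which moves cholesterol out of lysosomes, was at 22.3, 20.2 and 21.2 RPKM in the AOS livers and at 35.1, 36.0 and 35.1 RPKM in the HFD+AOS livers. The gap was many times the spread within either group (log2 difference 0.71, SE 0.09, adjusted p = 0.000395, and 0.00782 in the smaller set). Abcg5 and Abcg8, which pair up as the transporter that sends sterols into bile, rose by 0.53 (adjusted p = 0.031, and 0.164) and 0.64 (adjusted p = 0.0155, and 0.0878). Of 26 cholesterol synthesis genes 18 had a lower mean, with a median of -0.15, and limma passed 0, with 1 at an unadjusted p under 0.05. That median was 0.00 without HFD+AOS replicate 2, -0.01 without HFD+AOS replicate 1, -0.07 without AOS replicate 1 and -0.39 without HFD+AOS replicate 3.

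Nr1h4, which encodes the bile acid receptor FXR, was at 56.7, 56.9 and 56.3 RPKM in the AOS livers and at 85.0, 81.2 and 87.3 RPKM in the HFD+AOS livers. It rose by 0.57 (SE 0.10, adjusted p = 0.00526, and 0.0442 in the smaller set) with no overlap. In the list of 21 genes of bile acid synthesis and its control, Akr1c6, a hydroxysteroid dehydrogenase, and Amacr, a racemase of side chain shortening, also rose, by 0.45 (adjusted p = 0.0199, and 0.1) and 0.33 (adjusted p = 0.0172, and 0.116). Cyp7a1, the rate-limiting enzyme of the classical route, was at 8.92, 16.9 and 14.3 RPKM against 22.6, 28.2 and 50.2 RPKM and did not pass (log2 difference 1.23, SE 0.56, adjusted p = 0.227). Cyp8b1, which sets the share of cholic acid, had a log2 difference of 0.10 (adjusted p = 0.788). None of 12 genes of bile acid and canalicular transport passed by limma, with 5 at an unadjusted p under 0.05. The nearest were Abcb4, the phospholipid exporter, at 0.46 (adjusted p = 0.0782), and Abcc2, an exporter of conjugates, at 0.33 (adjusted p = 0.0907).

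G6pc and Gys2, at opposite ends of glucose handling, changed in opposite directions. G6pc, the glucose-6-phosphatase that releases glucose to blood, was at 351, 325 and 333 RPKM in the AOS livers and at 59.8, 59.6 and 158 RPKM in the HFD+AOS livers. It fell by 2.01 (SE 0.35, adjusted p = 0.00382, and 0.035 in the smaller set). Gys2, the glycogen synthase of the liver, rose from 40.2, 34.4 and 34.9 RPKM to 80.2, 79.9 and 81.8 RPKM (log2 difference 1.13, SE 0.15, adjusted p = 0.000635, and 0.0119). Ppp1r3c, which brings the activating phosphatase to glycogen, fell by 0.87 (adjusted p = 0.0242, and 0.121). The other 28 of 31 tested genes of glycolysis, gluconeogenesis and glycogen did not pass.

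Of 15 genes of the growth hormone and IGF axis 1 rose and 2 fell, and of 21 glucocorticoid and fasting responsive genes 1 rose and 3 fell, with Igfbp1 in both lists. Of all genes tested 5.44% passed. Igfbp1, a binding protein of insulin-like growth factors that insulin lowers, fell from 35.2, 59.6 and 49.3 RPKM to 8.46, 6.66 and 10.9 RPKM (log2 difference -2.34, adjusted p = 0.0362, and 0.158 in the smaller set). Stat5b, which carries the growth hormone signal, fell by 0.53 (adjusted p = 0.0029, and 0.0292), and Igfbp4 rose by 0.42 (adjusted p = 0.0191, and 0.111). Zbtb16, a glucocorticoid target, fell from 3.64, 2.04 and 2.55 RPKM to 0.74, 0.55 and 0.67 RPKM (log2 difference -1.16, adjusted p = 0.000327, and 0.00488).

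Of 20 hepatokine genes 3 rose and 1 fell, against 2.51% and 2.93% of all genes tested. Inhbe, an activin subunit made by hepatocytes, rose from 15.8, 9.05 and 11.9 RPKM to 36.2, 35.2 and 29.7 RPKM (log2 difference 1.41, adjusted p = 0.00745, and 0.0543 in the smaller set), while Inhba, another activin subunit, fell by 1.00 (adjusted p = 0.00646, and 0.0263). Lect2, a secreted leukocyte chemotaxin, rose by 0.82 (adjusted p = 0.00139, and 0.0223), and Enho, the precursor of adropin, by 0.82 (adjusted p = 0.00936, and 0.0628). Trib3, a pseudokinase that binds AKT, rose by 1.47 (adjusted p = 0.0227, and 0.12).

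**Figure D2:**
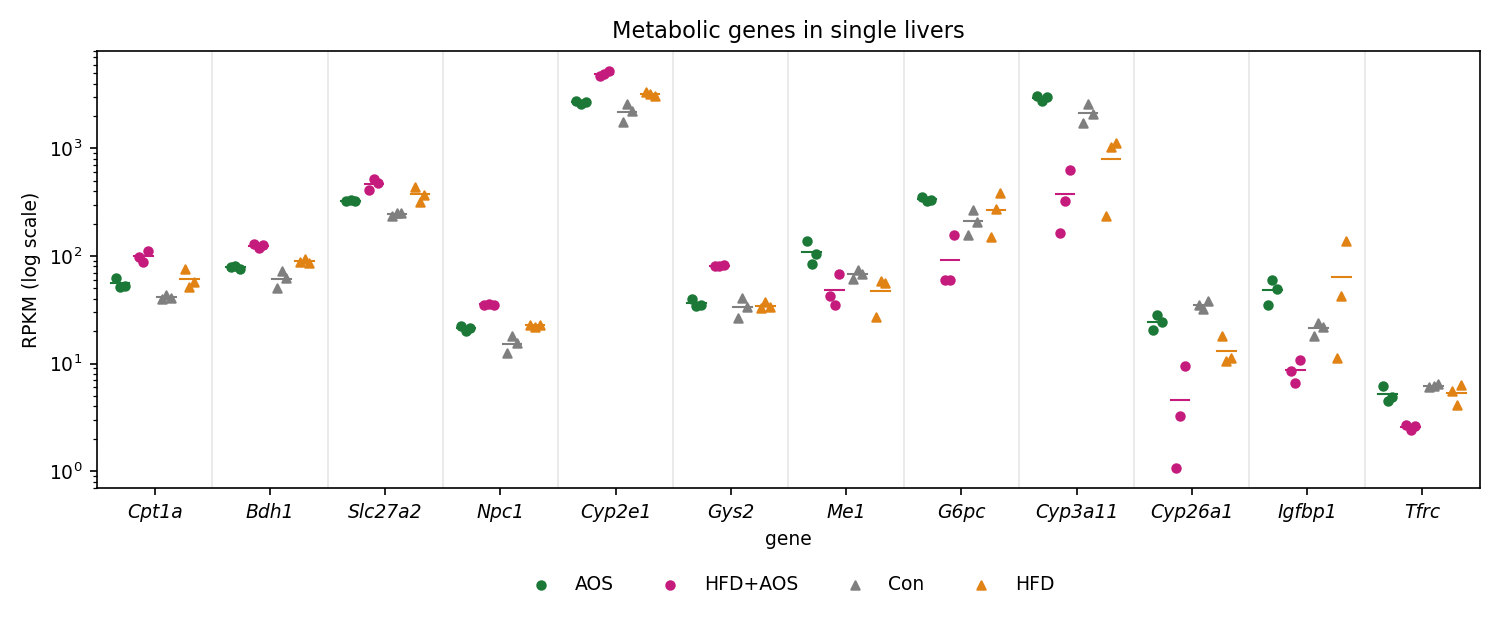
RPKM of 12 metabolic genes in single livers of the AOS, HFD+AOS, Con and HFD groups, on a log scale. Each point is a liver and each short line the mean of 3. HFD+AOS livers lie above AOS livers at Cpt1a, Bdh1, Slc27a2, Npc1, Cyp2e1 and Gys2 and below them at Me1, G6pc, Cyp3a11, Cyp26a1, Igfbp1 and Tfrc.

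The cytochromes P450 of foreign compounds fell where they changed, with Cyp2e1 as the exception among those named. Cyp3a11, a major drug oxidase of the mouse liver, was at 3085, 2759 and 2973 RPKM in the AOS livers and at 162, 327 and 631 RPKM in the HFD+AOS livers. It fell by 3.18 on the log2 scale (SE 0.53, adjusted p = 0.00258, and 0.0285 in the smaller set). All 5 tested Cyp3a genes had a lower mean, with a median of -0.81, and Cyp3a59 also fell, by 2.00 (adjusted p = 0.00932, and 0.0628). Of 31 Cyp2 genes 3 fell and 1 rose. Cyp2c29, a target of the receptor CAR, fell from 1070, 1046 and 1103 RPKM to 371, 449 and 450.1 RPKM (log2 difference -1.35, adjusted p = 0.00535, and 0.0442), and Cyp2b10, the usual readout of CAR, fell from 6.36, 1.25 and 3.06 RPKM to 0.11, 0.03 and 0.18 RPKM (log2 difference -1.88, adjusted p = 0.00941, and 0.0592). Cyp2c55 fell by 0.92 (adjusted p = 0.00249, and 0.0154). Cyp2e1, which oxidises ethanol and ketones, rose from 2750.1, 2570 and 2697 RPKM to 4663, 4886 and 5282 RPKM (log2 difference 0.89, adjusted p = 0.00165, and 0.0223). The stated alignment settings report repeated hits of a read, so values of near-identical family members are uncertain.

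Conjugating enzymes had 3 of 44 genes higher and 2 lower, against 2.51% and 2.93% of all genes tested, with a median of -0.22. The methyltransferase Tpmt rose by 0.50 (adjusted p = 0.024, and 0.102 in the smaller set) and the sulfotransferase Sult1b1 by 0.79 (adjusted p = 0.0342, and 0.131). The glutathione transferases Gsta2 and Gstt3 fell by 1.40 (adjusted p = 0.0445, and 0.149) and 1.35 (adjusted p = 0.0493, and 0.169).

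In retinoid handling, 3 of 34 genes rose and 2 fell, against 2.51% and 2.93% of all genes tested. Cyp26a1, which breaks down retinoic acid, was at 20.6, 28.1 and 24.1 RPKM in the AOS livers and at 1.06, 3.24 and 9.41 RPKM in the HFD+AOS livers, with no overlap (log2 difference -2.48, SE 0.46, adjusted p = 0.00535, and 0.0415 in the smaller set). Rdh9, a retinol dehydrogenase, rose from 10.1, 7.13 and 7.06 RPKM to 20.7, 18.3 and 31.1 RPKM (log2 difference 1.40, adjusted p = 0.00258, and 0.0345). Aox1, an oxidase that accepts retinal, fell by 0.66 (adjusted p = 0.0128, and 0.0765). Rbp4, the retinol carrier of blood, was at 2924, 2694 and 2668 RPKM against 3378, 3660 and 3616 RPKM, which missed the threshold (log2 difference 0.36, adjusted p = 0.0604, and 0.245).

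Of 17 tested iron handling genes 2 fell and 0 rose, against 2.93% and 2.51% of all genes tested, and 7 had a higher mean. Tfrc, the transferrin receptor, was at 6.22, 4.52 and 4.91 RPKM in AOS livers and at 2.67, 2.42 and 2.60 RPKM in HFD+AOS livers (log2 difference -0.79, adjusted p = 0.00382, and 0.0287 in the smaller set). Slc11a2, the divalent metal carrier DMT1, fell from 10.4, 11.2 and 11.2 RPKM to 6.66, 6.76 and 6.31 RPKM (log2 difference -0.65, adjusted p = 0.00148, and 0.0223). The other 15 of 17 iron genes did not pass.

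Red cell genes were uneven. Hbb-b1, a beta globin, fell from 847, 1095 and 977 RPKM to 367, 261 and 166 RPKM (log2 difference -1.94, adjusted p = 0.0206, and 0.102 in the smaller set), as did Hbb-b2 by 2.05 (adjusted p = 0.0198, and 0.0949) and the alpha globin Hba-a1 by 1.58 (adjusted p = 0.0222, and 0.104). Hbb-bs, a near-identical beta globin, was at 0.90, 133 and 84.6 RPKM in the AOS livers and at 133, 85.9 and 146 RPKM in the HFD+AOS livers (adjusted p = 0.513). Why it was so low in the first AOS liver was not tested, nor was the assignment of reads among these copies. Alas2, the haem enzyme of red cells, was at 97.0, 94.9 and 90.3 RPKM against 159, 136 and 68.4 RPKM.

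Among secreted proteins, F11, coagulation factor XI, rose by 0.60 (adjusted p = 0.00428, and 0.035 in the smaller set), the only call among 49 complement and coagulation genes. The 24 tested acute phase genes had a median of -0.23 (-0.14 without AOS replicate 1) and 0 calls by limma, with 4 at an unadjusted p under 0.05. Saa1, their most variable member, was at 278, 61.1 and 131 RPKM against 113, 79.5 and 50.9 RPKM (adjusted p = 0.653). The major urinary proteins, another family of near-identical copies, split in direction. Mup8 rose by 3.03 (adjusted p = 0.0284, and 0.116) and Mup14 fell by 3.38 (adjusted p = 0.038, and 0.161).

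Several lists of housekeeping and stress genes gave few calls. Of 81 cytosolic ribosomal protein genes 79 had a lower mean in HFD+AOS livers, with a median of -0.20 (-0.13 without HFD+AOS replicate 2). By limma 0 of them passed, and 14 had an unadjusted p under 0.05, against 2154 of all 10507 genes tested. Of 29 genes of ER stress and secretory chaperones 22 had a lower mean, with a median of -0.29. At 20 of the 29 every HFD+AOS liver was below every AOS liver, against 1796 of all 10507 genes tested. An unadjusted p under 0.05 was reached by 15 of the 29. The quality control gene Edem1 fell by 0.42 (adjusted p = 0.0188, and 0.12 in the smaller set), and Trib3, which also belongs to this list, was the member that rose. Of 41 proteasome genes 36 had a lower mean, with a median of -0.09 and 0 calls by limma, with 4 at an unadjusted p under 0.05. The 76 genes of the respiratory chain, with a median of -0.00, and the 44 interferon-stimulated genes, with a median of 0.02 that ran from -0.19 without AOS replicate 1 to 0.20 without AOS replicate 2, held 0 calls by limma, with 1 and 6 at an unadjusted p under 0.05.

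In the list used here for the zone around the central vein, the genes that passed rose, and 3 members had a lower mean. Other genes of the zone were not counted. The median of 14 tested pericentral genes was 0.16 (0.08 without HFD+AOS replicate 1). Of them 4 rose and 0 fell, against 2.51% and 2.93% of all genes tested, and 2 rose in the smaller set. Besides Cyp2e1 and Lect2 these were Glul, glutamine synthetase, at 177, 177 and 171 RPKM against 221, 233 and 255 RPKM (log2 difference 0.43, adjusted p = 0.0299, and 0.159), and Rnf43, a Wnt feedback gene, with a rise of 0.67 (adjusted p = 0.00578, and 0.0503). Of 13 periportal genes Ctsc, a lysosomal protease, fell by 0.89 (adjusted p = 0.00811, and 0.0628) and the median was -0.30 (-0.12 without HFD+AOS replicate 2).

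Markers of other liver cells moved in part with the groups. Stellate cell and matrix genes had 22 of 23 means higher in HFD+AOS livers, with a median of 0.25, and their summed level ran from 174 to 192 RPKM in AOS livers and from 187 to 251 RPKM in HFD+AOS livers. Col4a2, a basement membrane collagen, and Reln, which marks quiescent stellate cells, rose by 0.52 (adjusted p = 0.0179, and 0.111 in the smaller set) and 0.68 (adjusted p = 0.0224, and 0.119). Kupffer cell and macrophage markers had 14 of 16 means lower, with a median of -0.33, 0 calls by limma, 5 at an unadjusted p under 0.05 and a summed level of 239 to 288 RPKM against 192 to 214 RPKM. Sinusoidal endothelial markers summed to 82.2 to 98.0 RPKM against 78.4 to 92.0 RPKM. In bulk liver, fewer cells of a type and less RNA per cell cannot be told apart, and the part of cell mixture in the results above was not tested.

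**Figure D3:**
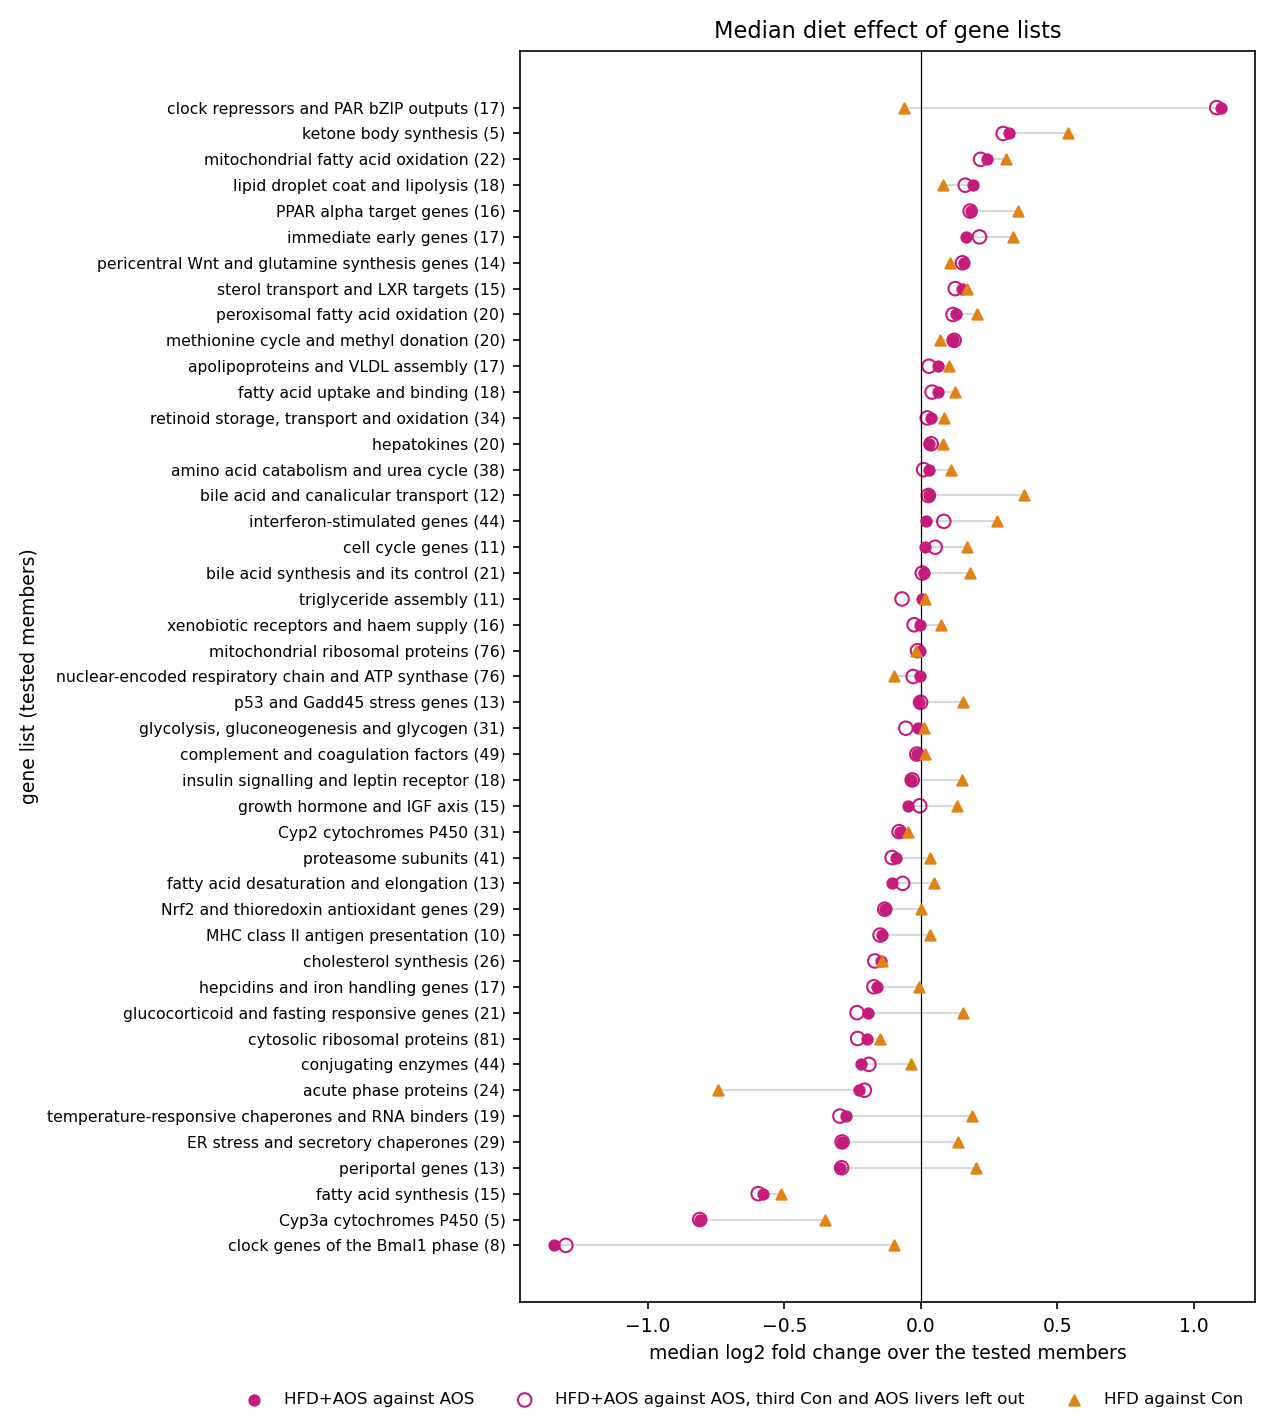
Median log2 difference over the tested members of each gene list for HFD+AOS against AOS (filled circles), for the same without the third Con and AOS livers (open circles) and for HFD against Con (triangles). The 2 clock lists lie at 1.10 and -1.34 with AOS and near 0 without it, while the lists of mitochondrial fatty acid oxidation and fatty acid synthesis have the same sign in both.

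The diet effect with AOS can be set beside that without AOS, from 6 other livers. HFD against Con changed 40 genes (0.381%), 31 higher (0.295%) and 9 lower (0.0857%). In the smaller set limma passed 0 of 10507 genes, with 1076 at an unadjusted p under 0.05. Of the 40 genes, 13 were also among the 572, which is 32.5% of the one list and 2.27% of the other, and all 13 had the same direction. Adam11, a membrane protein of the disintegrin family, and Ahcyl2, a relative of S-adenosylhomocysteine hydrolase, fell in both. Adam11 was at 11.1, 8.22 and 9.28 RPKM in AOS livers and 2.41, 3.75 and 4.47 RPKM in HFD+AOS livers, and at 11.3, 8.94 and 10.6 RPKM in Con and 3.48, 3.16 and 2.55 RPKM in HFD livers. In these 4 groups every liver on HFD was below every liver without it, with log2 differences of -1.23 with AOS (adjusted p = 0.00139, and 0.0179 in the smaller set) and -1.47 without it (adjusted p = 0.00745, and 0.167).

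Among the 11 genes that rose in both were Bdh1, Npc1, Slc27a2, Akr1c6, Acad10, Nox4, Lclat1, Qpct, Khdrbs3 and Mtnr1a. Npc1 was at 12.5, 17.96 and 15.4 RPKM in Con livers and 23.0, 21.99 and 22.9 RPKM in HFD livers, a log2 difference of 0.55 (adjusted p = 0.0283, and 0.205 in the smaller set). Nox4, an NADPH oxidase that makes hydrogen peroxide, rose by 0.89 with AOS (adjusted p = 0.00526, and 0.0413 in the smaller set) and 0.90 without (adjusted p = 0.0338, and 0.22). Acad10, an acyl-CoA dehydrogenase family member, rose by 0.59 (adjusted p = 0.00517, and 0.0493) and 0.63 (adjusted p = 0.0283, and 0.22). Lclat1, which remodels cardiolipin, Qpct, a glutaminyl cyclase, Khdrbs3, an RNA-binding protein, and Mtnr1a, a melatonin receptor, rose with AOS by 0.37 (adjusted p = 0.0366, and 0.165), 0.43 (adjusted p = 0.0365, and 0.104), 0.61 (adjusted p = 0.0132, and 0.0412) and 0.74 (adjusted p = 0.031, and 0.146).

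Of the 264 genes that rose with AOS, 79.9% also had a higher mean in HFD than in Con livers, and of the 308 that fell, 56.8% had a lower one. Among all genes tested 62.5% had a higher mean in HFD than in Con livers, so these 2 shares have different baselines. The same sign held for 54.0% of all genes tested, and the log2 differences of the 2 comparisons correlated with a Pearson r of 0.252 over 10507 genes, which are not independent of each other. The median log2 difference without AOS was 0.19 for the genes that rose with AOS and -0.04 for those that fell.

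**Figure D4:**
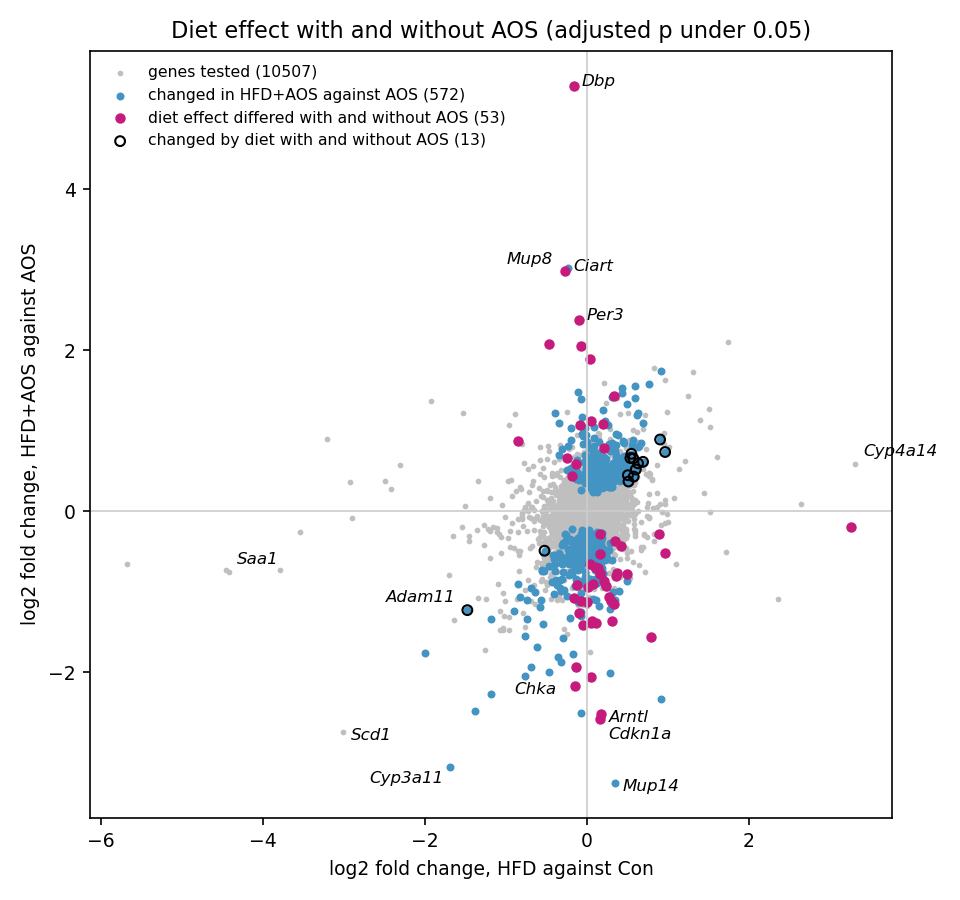
Log2 difference of HFD against Con (horizontal) and of HFD+AOS against AOS (vertical) for 10507 genes, as points. The 13 genes changed by diet both with and without AOS (open black circles) lie in the lower left and upper right, and the 53 genes whose diet effect differed (pink), Dbp, Ciart and Per3 at the top and Arntl and Cdkn1a at the bottom among them, mostly lie close to the vertical line at 0.

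The test of the difference between both diet effects passed for 53 genes (0.504%), 15 with a higher (0.143%) and 38 with a lower (0.362%) effect with AOS, and for 15 in the smaller set. Of the 53, 50 were among the 572. Besides the clock genes, Chka, Cdkn1a, Zbtb16, Gadd45a, Gys2 and Stat5b differed. Chka was between 44.1 and 52.5 RPKM in Con livers and between 38.9 and 48.1 RPKM in HFD livers, and its effects differed by -2.03 (adjusted p = 0.000109, and 0.00347 in the smaller set). Gys2 was at 26.3, 41.0 and 33.7 RPKM in Con and 32.5, 37.7 and 33.4 RPKM in HFD livers, and differed by 1.07 (adjusted p = 0.0367, and 0.269). In the A10-FMT livers Chka was at 9.30, 7.91 and 11.65 RPKM and Gys2 at 107.6, 102.38 and 69.86 RPKM. The Con-FMT livers had Chka at 27.55, 39.79 and 29.39 RPKM and Gys2 at 40.82, 47.76 and 45.35 RPKM. Ttc7, a scaffold of a phosphoinositide kinase at the membrane, differed by 0.92 (adjusted p = 0.00134, and 0.0251).

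Hamp2, Fgf21, Saa1, Abcb4 and Abcc2 passed for HFD against Con and not for HFD+AOS against AOS. Among them the test of the difference passed only for Hamp2. Without AOS, Abcb4 rose by 0.78 (adjusted p = 0.0352, and 0.22 in the smaller set) and Abcc2 by 0.54 (adjusted p = 0.0414, and 0.261). Hamp2, a second hepcidin gene, was at 6.50, 2.96 and 4.32 RPKM in Con livers and 42.6, 90.5 and 33.7 RPKM in HFD livers, and at 67.9, 31.8 and 44.7 RPKM in AOS livers and 25.6, 37.3 and 65.6 RPKM in HFD+AOS livers. The Con livers were the ones apart, and the effects differed by -3.46 (adjusted p = 0.0468, and 0.266 in the smaller set). Fgf21 rose by 1.44 in HFD livers against Con (adjusted p = 0.0283, and 0.205 in the smaller set), and its difference of -1.21 between the effects did not pass (adjusted p = 0.14). Cyp4a14 was at 0.20, 0.57 and 0.55 RPKM in Con and 12.7, 10.6 and 17.1 RPKM in HFD livers, which missed the threshold (log2 difference 3.31, adjusted p = 0.0803), and the difference of the effects did not pass (adjusted p = 0.265). Saa1 fell without AOS by 4.42 (adjusted p = 0.0352, and 0.266 in the smaller set), from 6422, 296 and 3570 RPKM in Con to 100, 156 and 43.2 RPKM in HFD livers. The Con livers differed widely among themselves, and the difference of 3.66 between the effects did not pass (adjusted p = 0.17).

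The genes Nr1d1, Nr1d2, Cry1, Cry2, Clock, Bhlhe41, Hlf, Upp2, Leo1, Tars, Adam11, Nox4, Acad10, Glul, Acaa1a, Enho, Gstt3, Hbb-bs, Acacb, Thrsp, Hamp2, Ahcyl2, Lclat1, Qpct, Mtnr1a and Khdrbs3 were named after their values were seen.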

How the data were processed

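Liver RNA of 18 mice in 6 groups of 3 was sequenced, and groups were taken from the labels. The authors deposited a single table of RPKM values with 2 decimals for 19057 lines, 3 symbols on more than 1 line. Its header names no unit, and RPKM is taken from the paper's methods, which name SOAPaligner. The submitters' processing notes name Bowtie 0.12.2 and mm10. The annotation and strandedness are not given in the sources used here. The paper's DEGseq test needs read numbers and was not run.

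Of 17109 genes above 0 anywhere, the 10507 that reached 1 RPKM in 3 or more livers were kept. Values were log2(RPKM + 1), fitted with a mean per group over all 18 livers, which share the spread (limma 3.58.1 with trend, R 4.3.3), and adjusted after Benjamini and Hochberg. The fit was tested on simulated data. Tables and figures were made with Python 3.11.15, numpy 2.4.6, pandas 2.3.3 and matplotlib 3.10.9. Promoter windows are from RefSeq on GRCm38.p6, and no coordinate was joined to a value.

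The comparison and the 59 gene lists were chosen with earlier results of these data known. Of 1426 list symbols 1240 were tested. Gm129 was dropped from a clock list because it is an older name of Ciart. Named genes were the 12 highest and 12 lowest calls without overlap, per list the 3 members of smallest p at most, 27 fixed genes and the 5 smallest p in each direction of the difference of diet effects. Others are said to have been named after their values were seen, and a few genes are not reported here. Alternatives were 2 rescalings of the livers, a pseudocount of 0.1, no filter on low values, only the groups compared, the replicate number as a block, each liver left out in turn, and omission of the third Con and AOS livers together. The labels do not say that the livers of a group come from separate cages or litters, so p values measure the spread between these livers.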

Additional observations from a re-analysis of the deposited data

Results flagged for a closer look

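The effect of HFD differed with and without AOS for 53 genes by limma. Those named here are given with the difference of both effects on the log2 scale, positive where the effect with AOS was higher. Among the genes of the clock lists it was 5.45 for Dbp, 3.26 for Ciart, 2.55 for Usp2, 2.48 for Per3, 2.12 for Tef and 1.86 for Wee1. It was -2.70 for Arntl, -1.81 for Npas2, -1.68 for Nfil3, -1.16 for Clock and -0.95 for Leo1. In other genes it was -3.46 for Hamp2, -2.74 for Cdkn1a, -2.03 for Chka, -1.50 for Zbtb16, -0.69 for Stat5b, 1.10 for Gadd45a, 1.07 for Gys2 and 0.92 for Ttc7. Without the third Con and AOS livers, Tef (adjusted p = 0.119), Clock (0.0966), Leo1 (0.297), Hamp2 (0.266), Stat5b (0.165), Gadd45a (0.195) and Gys2 (0.269) no longer passed. The groups had 3 livers each, so single livers were not tested as outliers.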

How the results depend on the processing

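The 572 genes that differed between HFD+AOS and AOS livers became 161 without the third Con and AOS livers. They became 91 when a log2 change of 1 or more was also asked for. Leaving out each liver in turn gave 240 (without AOS replicate 2) to 459 (without HFD+AOS replicate 3). It gave 248 without AOS replicate 3, 265 without HFD+AOS replicate 1 and 327 without HFD+AOS replicate 2. The 40 genes that differed between HFD and Con livers became 26 with no low-value filter and 2 with only the groups compared. They became 5 with the replicate block, 0 without the third livers, and 0 to 178 with single livers left out. The 53 genes with a differing effect became 137 with only the groups compared, 15 without the third livers, and 29 to 186 with single livers left out. The 26 genes past the study's cut-offs became 6 without the third livers, and 16 to 24 with single livers left out. Of 101 named genes that passed, 0 changed direction under 13 alternatives and 48 passed under each of them. Without the third livers 52 of them no longer passed. Among named genes that did not pass, Cyp4a10 ranged from -0.45 (without HFD+AOS replicate 3) to 0.59, and was -0.39 without AOS replicate 2, Cyp4a14 from -0.18 (without HFD+AOS replicate 3) to 1.15, and Hamp2 from -0.555 to 0.11 (without HFD+AOS replicate 1), and was 0.08 without AOS replicate 1. The replicate numbers share only a number. Same-numbered AOS and HFD+AOS livers correlated at -0.00 to 0.04, and 4 of 6 correlated best with their own number. The replicate block gave 544, 68 and 22 genes for the diet effect with AOS, the differing effects and the cut-offs. Depth is unknown, which limits what low RPKM values can show.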
